A study of Mus musculus with 6 samples.

Results

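This section describes 10 collagen genes of fibrous tissue and perichondrium in anterior nasal septum cartilage of the mouse embryo: Col1a1, Col1a2, Col3a1, Col5a1, Col5a2, Col6a1, Col6a2, Col6a3, Col12a1 and Col14a1. They form a list chosen with earlier results of these data known, were matched by Ensembl identifier, and are 10 of the 38924 genes in the count files. RNA-seq was performed on cartilage cut by laser from frozen head sections at embryonic day 14.5, in 3 wild-type (WT) embryos and 3 embryos labelled Fgfr2+/S252W; EIIA-Cre (Apert), all on the C57BL/6 strain. The S252W allele is a point mutation in 1 copy of the fibroblast growth factor receptor gene Fgfr2 that models Apert syndrome, a human craniosynostosis. EIIA-Cre is a transgene that acts in the early embryo, so the allele is not limited to cartilage, and the labels name no Cre in the WT group. The comparison asks how RNA levels in this cartilage differ between the genotypes.

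Collagens are built from 3 chains wound into a triple helix. Type I collagen, the main fibril of tendon, bone and perichondrium, normally combines a pair of chains from Col1a1 with a single chain from Col1a2. Type III, from Col3a1 alone, mixes with type I in soft fibrous tissue, and type V, from Col5a1 and Col5a2, starts fibrils and limits their width. Type VI chains, from Col6a1, Col6a2 and Col6a3, form beaded filaments around cells, chondrocytes among them. Types XII and XIV, from Col12a1 and Col14a1, sit on the surface of fibrils and link them to the matrix. Mature hyaline cartilage is built mainly on type II fibrils, while the perichondrium around it is rich in type I.

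Library totals ran from 8631181 to 10834744 counts in WT and from 6760510 to 10527915 in Apert, and 1 count was at most 0.162 CPM, the counts scaled by TMM to a common library size that are used throughout. The label of the tissue was checked against 19 chondrocyte genes, which summed to between 38824 and 49972 CPM in WT and between 39978 and 43266 CPM in Apert, with at least 18 detected in each library. The mitochondrial genome took 28.8% to 30.2% of counts in WT and 34.3% to 40.4% in Apert, so the groups did not overlap. With mitochondrial and globin genes removed from the fit, edgeR called 55 genes, against 60 with them. Col3a1 was then at a log2 fold change of 0.69 (edgeR adjusted p = 0.0343). Beyond that removal, the part of this share in the results below was not tested. Fgfr2 ranged from 583 to 701 CPM across WT and from 467 to 584 CPM across Apert libraries (log2 fold change -0.28, SE 0.14; edgeR adjusted p = 0.461), and a point mutation leaves its exons countable, so this does not check the labels.

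Start regions of 6 of the 10 genes were found in RefSeq (GRCm38.p6). Those of Col3a1 and Col5a1 are shown because they are the regions of the only gene on the list that passed the test between genotypes and of a gene whose log2 fold change lay near 0. Each run is the 250 bases before the RefSeq start, 5′ to 3′ on the gene's plus strand, with no exon of the count files inside it. Capitals mark matches to 3 short promoter motifs, searched on both strands, which did not overlap each other. The TATA box was searched as TATAAA. The CCAAT box was searched by those letters. The GC box, which binds Sp1-like factors, was searched as GGGCGG.
Col3a1, chr1:45311288-45311537: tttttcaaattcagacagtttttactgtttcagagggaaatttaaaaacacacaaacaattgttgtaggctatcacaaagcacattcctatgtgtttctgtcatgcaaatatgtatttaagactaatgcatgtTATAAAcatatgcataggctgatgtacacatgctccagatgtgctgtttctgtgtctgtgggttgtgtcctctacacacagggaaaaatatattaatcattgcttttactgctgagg
Col5a1, chr2:27886175-27886424: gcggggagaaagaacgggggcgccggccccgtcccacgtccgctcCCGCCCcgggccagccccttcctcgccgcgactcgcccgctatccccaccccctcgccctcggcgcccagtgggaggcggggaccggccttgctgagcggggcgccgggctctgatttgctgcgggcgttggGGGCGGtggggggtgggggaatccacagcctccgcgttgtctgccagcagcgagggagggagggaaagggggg

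The Col3a1 region was 35.2% G or C, above only 5.0% of the 32851 RefSeq regions of this length, and held 1 match to TATAAA. The Col5a1 region was 76.4% G or C, above 97.0% of regions, and held 2 matches to GGGCGG. The log2 fold change was smaller in size for Col6a2 (0.07) than for Col5a1 (-0.11). A region of Col6a2 without exons was 59.2% G or C, above 70.1% of regions, and held 1 match to GGGCGG. The letters TATAAA were found in 12.4%, CCAAT in 33.8% and GGGCGG in 32.7% of all regions. The region of Col6a3 held none of these letters, and that of Col1a2 held 1 CCAAT and 2 GGGCGG. The Col1a2 region overlaps an exon of Col1a2 in the count files, where the gene starts 804 bp before its RefSeq start. These are matches of letters only.

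All 10 genes were measured in every library and all passed the filter on low counts. Levels between genes were compared as TMM-scaled CPM per kilobase of the gene's exons in the count files. In WT cartilage the order began with Col1a2 at 98.7 ± 5.43, Col12a1 at 70.3 ± 7.98 and Col14a1 at 43.4 ± 6.17 CPM per kilobase (SD, n = 3). Col3a1 (33.4 ± 4.21), Col5a1 (28.8 ± 3.45) and Col1a1 (21.4 ± 10.2) came next, and WT libraries overlapped between Col3a1 and Col5a1 and between Col5a1 and Col1a1. Col5a2 stood at 7.83 ± 0.480, and the type VI genes closed the order with Col6a3 at 3.15 ± 1.26, Col6a2 at 2.77 ± 0.996 and Col6a1 at 1.15 ± 0.487 CPM per kilobase. Col6a3 and Col6a2 overlapped. In Apert cartilage Col3a1, at 54.1 ± 1.89, had rank 3 and Col14a1, at 35.1 ± 7.77, rank 5, where its libraries overlapped those of Col1a1 (38.3 ± 9.33) and of Col5a1 (26.6 ± 3.36). Exons in the files include those of partial transcripts, and Col1a2 has 12136 bp there against 5348 bp in its principal GENCODE transcript. With principal transcript lengths, an alternative chosen after seeing the data, Col1a2 was at 224 ± 12.3 CPM per kilobase in WT, the first 7 places of the WT order held the same genes, and Col6a2 came before Col6a3. In Apert, Col14a1 then had rank 4 and Col1a1 rank 5, with overlap.

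The 10 genes together took 0.341% to 0.370% of counts in WT and 0.363% to 0.393% in Apert, so these shares overlapped. On the TMM scale they summed to 3211 to 3597 CPM in WT and 3747 to 4319 CPM in Apert, most of it from Col1a2 and Col12a1. Among all collagen genes they held 8.31% to 9.88% of collagen CPM in WT and 10.6% to 11.6% in Apert, and this share did not overlap between groups. No test was made of these sums, since the list was chosen with results known. In bulk RNA, fewer cells of a type and less RNA per cell cannot be told apart.

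**Figure D1:**
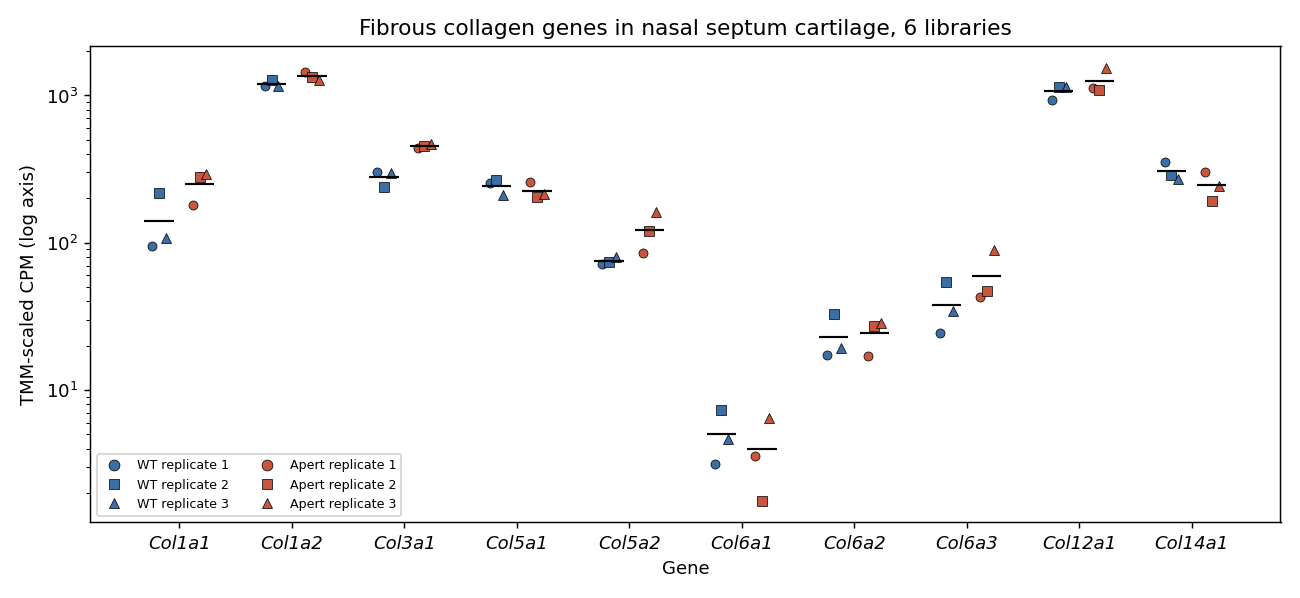
TMM-scaled CPM (log axis) of each gene in the 6 libraries; blue WT, red Apert, one symbol shape per replicate number, bars are group means. Col1a2 and Col12a1 have the highest CPM and Col6a1 the lowest, and the 3 Apert libraries lie above the 3 WT libraries for Col3a1 and Col5a2.

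Of the 10 genes, 1 rose in Apert cartilage and none fell (edgeR quasi-likelihood test, Benjamini-Hochberg adjustment over 13333 genes), where 0.45% of all genes tested were called, 0.398% higher and 0.0525% lower. Before adjustment 4 were higher at a p below 0.05 and 0 lower, against 6.35% of all genes higher, 5.01% lower and 11.4% in either direction. DESeq2 called 2 higher and 0 lower, against 2.26% higher and 0.87% lower of the 7129 genes to which it gave an adjusted p. With limma-voom 1 was higher and 0 lower, against 0.443% and 0.0675% of all genes. The Apert libraries lay wholly above the WT libraries in 2 of 10, against 8.92% of all genes, and wholly below in 0 of 10, against 7.7%. The median log2 fold change was 0.20 over the 10 genes and 0.01 over all genes tested, and 7 of 10 were above 0, against 51.1% of all genes. Scaling by library totals alone moved the median of all genes to -0.14 and that of the 10 genes to 0.04, so changes are relative to the scaling. That scaling called 17 genes higher and 24 lower over all genes, where TMM called 53 higher and 7 lower.

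The 2 genes of type I collagen differed in level and in how steady they were. Col1a1 was measured at 95.7, 218 and 108 CPM in the WT libraries, in replicate order here and below, and at 181, 278 and 295 CPM in the Apert libraries. WT replicate 2 lay above Apert replicate 1, so the groups overlapped. The log2 fold change was 0.84 (SE 0.24, 95% interval 0.32 to 1.35) and did not pass over all genes (edgeR adjusted p = 0.165). Without WT replicate 2 it was 1.30 (adjusted p = 0.0167), and without Apert replicate 1 it was 0.99 (adjusted p = 0.0319). It was 0.62 and 0.68 without WT replicate 1 or 3 (adjusted p of 0.480 and 0.420), and 0.74 and 0.69 without Apert replicate 2 or 3 (adjusted p of 0.472 and 0.464). Col1a2 had more counts per kilobase than Col1a1 in every library. It was at 1157, 1274 and 1163 CPM in WT and 1441, 1341 and 1264 CPM in Apert. Its lowest Apert library lay just below its highest WT library, and its log2 fold change was 0.17 (SE 0.13, interval -0.09 to 0.43; adjusted p = 0.655). Both genes share no exon with another gene in the files. Col1a1 lies on chromosome 11 from 94936224 to 94953042 and Col1a2 on chromosome 6 from 4504814 to 4541543 (mm10, plus strand), and their longest transcripts have 58.9% and 55.7% G or C.

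Col3a1, the type III fibril gene, was measured at 303, 239 and 297 CPM in WT and 437, 453 and 469 CPM in Apert. Every Apert library lay above every WT library, and the 3 Apert libraries were close together. It rose 1.62-fold, a log2 fold change of 0.69 (SE 0.14, interval 0.41 to 0.98; edgeR adjusted p = 0.0322), and stood 31st of 13333 genes by p. The change was positive in all 18 alternative fits, from 0.54 to 0.81, and was called in 11 of them. Leaving out WT replicate 1, 2 or 3 gave adjusted p of 0.0898, 0.121 and 0.120, leaving out Apert replicate 2 or 3 gave 0.199 and 0.136, and without Apert replicate 1 it was 0.0197. With a correction for GC content it was 0.80 with an adjusted p of 0.0567, and with scaling by library totals alone it was 0.54 with an adjusted p of 0.102. Col3a1 lies on chromosome 1 from 45311538 to 45349706 on the plus strand.

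Col5a2, a chain of fibril-starting type V collagen, lies 24.6 kb from Col3a1 on the opposite strand, with no gene of the files between them and no shared exon. It was at 71.2, 73.8 and 80.2 CPM in WT and 84.7, 120 and 163 CPM in Apert. The WT libraries were close together, and the Apert libraries all lay above them but spread over a wider range. The log2 fold change was 0.70 (SE 0.19, interval 0.30 to 1.10) and did not pass (edgeR adjusted p = 0.135). It was 0.43 without Apert replicate 3 (adjusted p = 0.490) and 0.88 without Apert replicate 1 (adjusted p = 0.0102), and DESeq2 gave an adjusted p of 0.0366. Its partner in type V is Col5a1, on chromosome 2. Col5a1 was at 256, 265 and 211 CPM in WT and 258, 203 and 215 CPM in Apert, with overlapping groups and a log2 fold change of -0.11 (SE 0.14, interval -0.42 to 0.19; adjusted p = 0.818). With the GC correction its log2 fold change was 0.17. Of its exon bases 2.5% are shared with 2810430I11Rik and Gm13372, and its longest transcript has 58.0% G or C where that of Col5a2 has 49.7%.

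The type VI genes were the lowest on the list per kilobase in both groups. Col6a3 was at 24.4, 54.1 and 34.4 CPM in WT and 42.6, 47.1 and 89.5 CPM in Apert. WT replicate 2 lay above 2 of the Apert libraries, and the log2 fold change of 0.66 (SE 0.28, interval 0.07 to 1.25) did not pass (edgeR adjusted p = 0.383). It was 0.24 without Apert replicate 3. Col6a2 was at 17.4, 32.6 and 19.2 CPM in WT and 17.1, 27.3 and 28.4 CPM in Apert, with a log2 fold change of 0.07 (SE 0.26) that turned negative, to between -0.10 and -0.04, when WT replicate 1, WT replicate 3, Apert replicate 2 or Apert replicate 3 was left out. Col6a1 had 36, 76 and 43 counts in WT and 36, 13 and 40 counts in Apert, which is 1.77 to 7.34 CPM over all libraries. Its log2 fold change was -0.37 (SE 0.49, interval -1.39 to 0.65; adjusted p = 0.829), an interval that holds no change and a fall of 1 on the log2 scale alike. Col6a1 and Col6a2 lie 85.2 kb apart on the minus strand of chromosome 10 with no gene of the files between them.

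Of the fibril-surface collagens, Col12a1 was measured at 930, 1144 and 1137 CPM in WT and 1120, 1083 and 1546 CPM in Apert. Apert replicate 3 alone lay above the WT range. The log2 fold change was 0.22 (SE 0.15, interval -0.09 to 0.54; edgeR adjusted p = 0.617) and 0.03 without Apert replicate 3. Col14a1 went the other way on average, with 354, 288 and 272 CPM in WT and 302, 193 and 243 CPM in Apert, where WT replicate 1 was the highest and Apert replicate 2 the lowest library. Its log2 fold change was -0.31 (SE 0.16, interval -0.65 to 0.04; adjusted p = 0.499) and negative in all 18 alternative fits, from -0.51 to -0.17. Col12a1 lies on chromosome 9 from 79598991 to 79718831 (minus strand) and Col14a1 on chromosome 15 from 55307750 to 55520803 (plus strand), and neither shares exons.

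**Figure D2:**
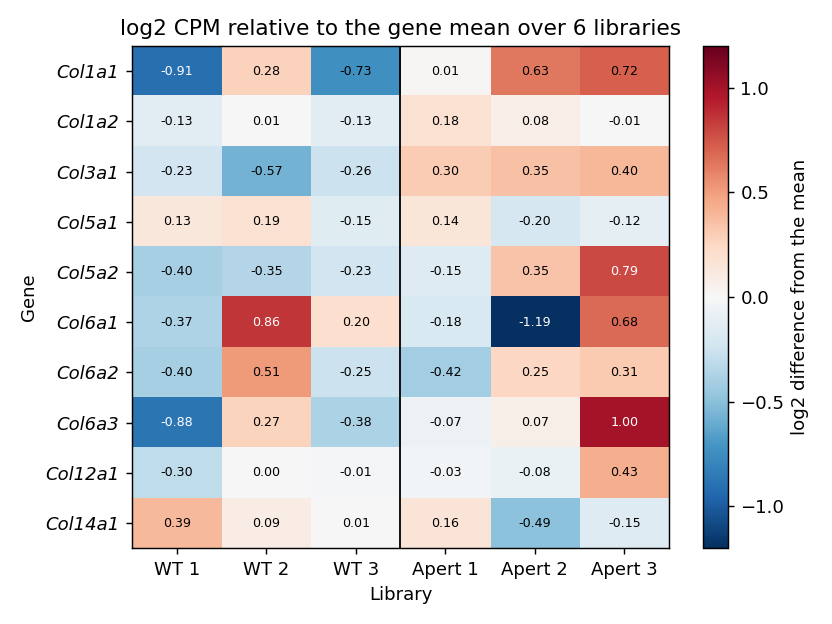
log2 CPM of each gene in each library (columns) minus the gene's mean over the 6 libraries; red is above and blue below the mean, and the line parts WT from Apert. WT replicate 1 is low for Col1a1 (-0.91) and Col6a3 (-0.88), and Apert replicate 3 is high for Col5a2 (0.79) and Col1a1 (0.72).

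The list did not vary as 1 block. Relative to each gene's own mean, Col1a1, Col6a2 and Col6a3 were all below their means in WT replicates 1 and 3 and above their means in WT replicate 2, whereas Col3a1 was at its lowest in WT replicate 2, at -0.57. Averaged over the 10 genes, the log2 profile was -0.30, 0.12 and -0.20 over the WT libraries and -0.01, -0.01 and 0.40 over the Apert libraries, so WT replicate 2 lay above 2 Apert libraries. Col12a1 followed this average most closely, with a root mean square distance of 0.10, and Col6a1 least, at 0.52. Of 7444 other tested genes with at least 10 CPM on average, those near to it over the 6 libraries included Zcchc17 (0.04), Fut11 (0.06), Srp14 (0.07) and Msn (0.07), and none of these 4 was called.

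**Figure D3:**
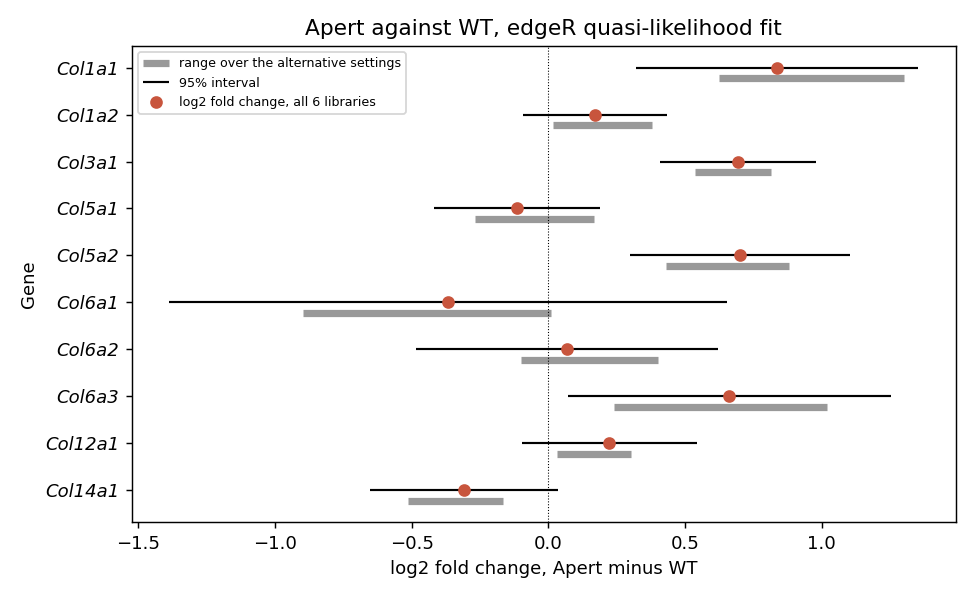
log2 fold change of each gene, Apert minus WT (points), with its 95% interval (thin lines) and the range over the alternative fits (grey bars); the dotted line is 0. The intervals of Col1a1, Col3a1, Col5a2 and Col6a3 lie above 0, and after adjustment over all genes only Col3a1 passed, with all 6 libraries and TMM scaling.

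Chain ratios within a collagen type were taken inside each library as counts per kilobase of exon, which needs no scaling between libraries. No GC correction was applied to the ratios, and the part of GC content in them was not tested. For type I, the ratio of Col1a1 to Col1a2 was 0.153, 0.316 and 0.172 in WT and 0.232, 0.383 and 0.431 in Apert. Counts per kilobase of Col1a1 were thus below those of Col1a2 in all 6 libraries, and also with principal transcript lengths, at ratios of 0.0746 to 0.210. Differences between these genes in capture or amplification were not tested. On the log2 scale the ratio was -2.30 ± 0.56 in WT and -1.57 ± 0.47 in Apert (SD, n = 3 each), a difference of 0.74 that did not pass a two-sided exact permutation test (p = 0.2, adjusted over 6 ratios 0.4). WT replicate 2 lay above Apert replicate 1. With 3 against 3 libraries the smallest possible p is 0.1.

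For type V, the ratio of Col5a1 to Col5a2 was 4.06, 4.06 and 2.97 in WT and 3.44, 1.92 and 1.50 in Apert. Apert replicates 2 and 3 lay below all WT libraries, while Apert replicate 1 lay within their range. The log2 ratio was 1.87 ± 0.26 in WT and 1.10 ± 0.62 in Apert (SD, n = 3 each), a difference of -0.77 (exact permutation p = 0.2, adjusted 0.4). It ran from -1.11 to -0.51 with each library left out, the latter without Apert replicate 3. In the edgeR fit with the GC correction, the log2 fold changes of Col5a1 and Col5a2 were 0.17 and 0.72, against -0.11 and 0.70 without it.

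Within type VI, Col6a3 stood at 2.86, 2.70 and 2.70 times Col6a1 in WT and at 4.36, 9.72 and 5.04 times in Apert. All Apert libraries lay above the WT libraries, and the difference of 1.12 in log2 ratio reached the smallest p the design allows (exact permutation p = 0.1, adjusted 0.4). It was 0.77 without Apert replicate 2, where Col6a1 rests on 13 counts. The log2 ratio of Col6a1 to Col6a2 was -1.29 ± 0.23 in WT and -1.85 ± 1.01 in Apert (SD, n = 3 each). The difference of -0.56 (exact permutation p = 0.6) became 0.03 without Apert replicate 2. Between types, the log2 ratio of Col3a1 to Col1a1 differed by -0.20 (exact permutation p = 0.8) and that of Col12a1 to Col14a1 by 0.53 (p = 0.3). Leaving out WT replicate 1 took the former to 0.08, and leaving out WT replicate 2 took it to -0.68. None of the 6 ratios passed.

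**Figure D4:**
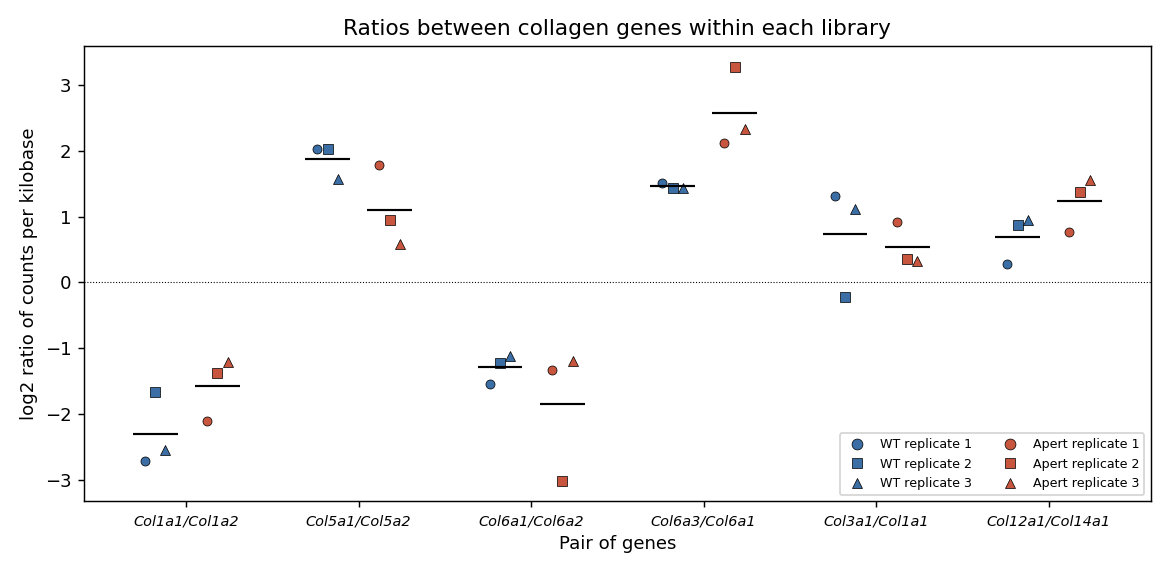
log2 ratio of counts per kilobase between pairs of collagen genes in each library; blue WT, red Apert, bars are group means, and the dotted line is a ratio of 1. Col1a1/Col1a2 lies below 0 and Col5a1/Col5a2 above 0 in all 6 libraries, and only Col6a3/Col6a1 separates the groups.

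Genes that make, bind or sense these collagens were read in the same fit. Over all genes tested, 6.35% were higher and 5.01% lower at an unadjusted p below 0.05, and edgeR called 0.398% higher and 0.0525% lower. Of 34 genes for processing and cross-linking of collagen 33 were tested, and edgeR, DESeq2 and limma-voom called 0 of them. At an unadjusted p below 0.05, 2 were higher and 4 lower, and the median log2 fold change was -0.11, which the GC correction turned to 0.05. The prolyl 3-hydroxylase gene P3h2 was at 0.96 (adjusted p = 0.220) and shares exons with Gm4524, P3h4 was at -0.59 (adjusted p = 0.221), the collagen chaperone gene Fkbp10 (exons shared with Nt5c3b) at -0.70 (adjusted p = 0.228) and the procollagen protease gene Bmp1 at -0.57 (adjusted p = 0.376). Over the fits lacking 1 library Fkbp10 ran from -1.03 to -0.49 and was called in 1 of the 6 fits.

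Among 23 tested fibril partners 1 rose, and 8 were higher and 2 lower at an unadjusted p below 0.05 (edgeR; median log2 fold change 0.14). Ogn, a small proteoglycan that binds collagen fibrils, was at 61.7, 97.8 and 101 CPM in WT and 132, 172 and 193 CPM in Apert, with no overlap. It rose by 0.93 on the log2 scale (SE 0.19, edgeR adjusted p = 0.0363). With the GC correction it was at 0.66 (adjusted p = 0.258), and it was called in 1 of the 6 fits that left out a library, the fit without Apert replicate 1. Aspn, which binds type I collagen, was at 1.37 (adjusted p = 0.0834), the matrix glycoprotein gene Tnc (exons shared with 8030451A03Rik) at 0.61 (0.0914), Emilin1 at -0.69 (0.147) and the proteoglycan gene Bgn at 0.44 (0.234). DESeq2 called 2 partners higher and 1 lower.

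No collagen receptor gene was called by the 3 tools among 11 tested (median -0.03, or 0.11 with the GC correction, with 0 higher and 1 lower at an unadjusted p below 0.05). Cspg4, which binds type VI collagen, averaged 318 ± 93.5 CPM in WT against 220 ± 38.0 CPM in Apert, without overlap (SD, n = 3 each; log2 fold change -0.53, edgeR adjusted p = 0.254), and the integrin gene Itga11 was at -0.30 (adjusted p = 0.649). Of 20 tested regulators of fibrous tissue edgeR called 0 and DESeq2 1 higher (median 0.02, with 1 higher and 2 lower at an unadjusted p below 0.05). Prrx1, a homeobox factor of craniofacial mesenchyme, was at 222, 218 and 218 CPM in WT and 356, 332 and 261 CPM in Apert (log2 fold change 0.53, edgeR adjusted p = 0.120). Six2 was at -0.47 (adjusted p = 0.413) and Tgfb3 at -0.51 (adjusted p = 0.426), both with overlapping groups.

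Of 17 tested collagens outside both this list and the cartilage set none was called by the 3 tools (median 0.10, 0.41 with the GC correction and -0.05 with library totals alone, with 3 higher and 0 lower at an unadjusted p below 0.05). Col8a1, a short-chain collagen, was at 0.608, 5.80 and 5.21 CPM in WT and 6.96, 15.8 and 31.4 CPM in Apert (log2 fold change 2.22, edgeR adjusted p = 0.0988), and the fibrillar collagen gene Col24a1 was at 0.96 (adjusted p = 0.329). Leaving out a library moved Col8a1 from 1.54 to 2.65 and Col24a1 from 0.43 to 1.26, with 1 of 6 fits calling each. The 8 cartilage collagens had none called by the 3 tools (median -0.20, but 0.13 with the GC correction, with 0 higher and 1 lower at an unadjusted p below 0.05) and summed to 28639 to 38948 CPM in WT and 29318 to 32274 CPM in Apert. Col9a2 was at -0.43 (adjusted p = 0.344) and Col11a1 at 0.19 (adjusted p = 0.623).

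Markers of the cell types that such a capture could hold were read beside the collagens. The 18 perichondrium and fibroblast markers, none of them on the collagen list, had 16 or 17 members detected in each library and Dpt at 0 counts in all. Of these 18, 8 also stand among the fibril partners and 5 among the regulators. They summed to 992, 1137 and 1092 CPM in WT and 1402, 1460 and 1777 CPM in Apert, so the groups did not overlap in this sum. Of the 15 tested, Ogn rose, and 7 were higher and 0 lower at an unadjusted p below 0.05, against 6.35% and 5.01% of all genes. The median log2 fold change was 0.50. The log2 fold change was positive for 10 of the 15 and negative for 5. The part of these markers in the collagen values was not tested. Postn, a perichondrial matrix gene, was at 226, 227 and 266 CPM in WT and 262, 288 and 539 CPM in Apert. Apert replicate 3 was also the highest library for Ogn and for Col1a1, Col3a1, Col5a2, Col6a3 and Col12a1. It was not the highest for Col1a2, Col5a1, Col6a1, Col6a2 or Col14a1. Apert replicate 3 also had the fewest counts (6760510) and the largest mitochondrial share (40.4%) of all libraries, whose part in these values was not tested.

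Osteoblast markers, of a cell type that makes type I collagen, summed to 87.8 to 91.6 CPM in WT and 77.2 to 100 CPM in Apert, 3 of 12 were tested, and Bglap2, Ibsp and Dmp1 were at 0 counts in all libraries. The regulator gene Runx2, which shares exons with Runx2os1, was at a log2 fold change of 0.01 (edgeR adjusted p = 0.992). Summed levels were 54.6 to 56.2 CPM in WT and 45.8 to 60.2 CPM in Apert for mural cells, 22.2 to 34.7 and 34.4 to 40.4 CPM for skeletal muscle (Myod1, Myog, Myf5 and Ckm at 0), and 51.5 to 92.9 and 59.1 to 71.3 CPM for erythroid cells. Endothelial (1.91 to 5.53 and 3.68 to 5.04 CPM), leukocyte (5.39 to 10.7 and 4.57 to 17.1 CPM) and epithelial markers (1.19 to 1.35 and 0.298 to 2.59 CPM) were near 0. Glia markers summed to 282 to 348 CPM in WT and 207 to 266 CPM in Apert, which did not overlap, and neuron markers to 193 to 234 and 234 to 268 CPM. Most of the glia sum came from Sox10 and Erbb3, which averaged 145 and 134 CPM in WT and 94.7 and 105 CPM in Apert. Most of the neuron sum came from Ncam1, which averaged 202 CPM in WT and 239 CPM in Apert. Among these 9 lists and the chondrocyte list edgeR called 0 genes. At an unadjusted p below 0.05 it gave 1 higher and 4 lower among chondrocyte markers, 0 and 2 among glia markers, and at most 1 in any other. DESeq2 called 2 chondrocyte genes and 1 glia gene lower. The chondrocyte list includes cartilage collagens. In it Chad was at a log2 fold change of -0.63 (edgeR adjusted p = 0.0695) and Sox9 at -0.67 (adjusted p = 0.125). Matn3 was at 0.85 (adjusted p = 0.197).

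**Figure D5:**
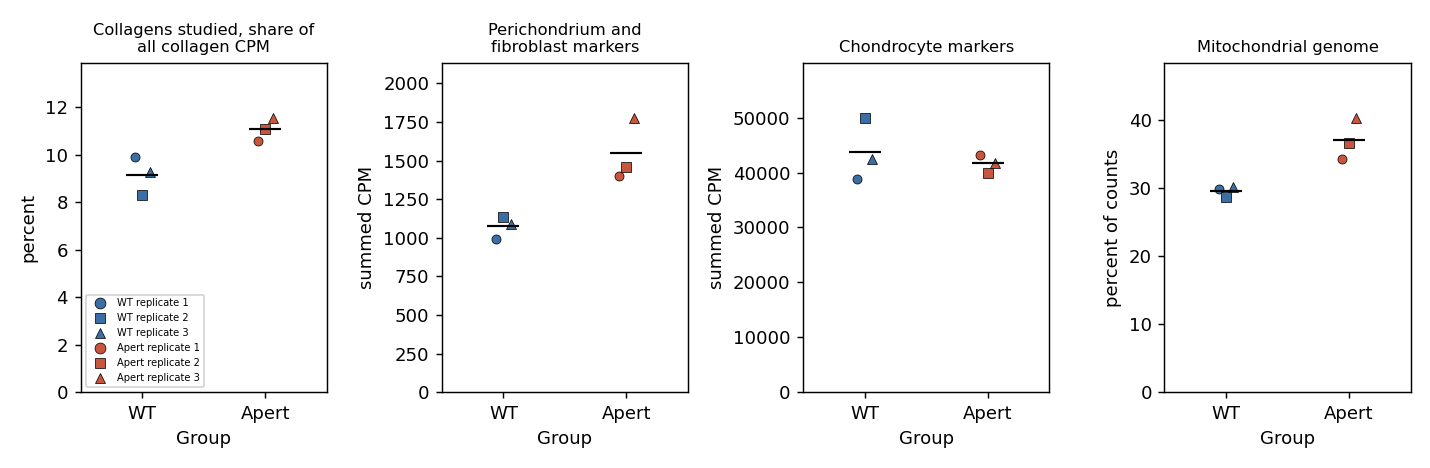
Values per library in WT (blue) and Apert (red), bars are group means and all axes start at 0: share of collagen CPM held by the 10 genes, summed CPM of perichondrium and fibroblast markers, summed CPM of chondrocyte markers, and share of counts from the mitochondrial genome. Groups do not overlap for the collagen share, the sum of fibroblast markers or the mitochondrial share. They overlap for the sum of chondrocyte markers, of which 13 of 18 tested had a negative log2 fold change.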

How the data were processed

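RNA was taken from laser-captured nasal septum cartilage of 3 WT and 3 Apert embryos, which the series' design text describes as separate mice, and 15 ng per library was amplified before 100-base paired reads were made, per the labels' protocols. The authors deposited raw counts of read pairs per Ensembl gene over exons, counted without strand by featureCounts 1.4.4 on mm10, per the file headers. The submitters' processing notes also name cutadapt and STAR 2.5.2b. Without strand, reads of overlapping genes cannot be told apart. Amplified reads are not independent molecules.

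Genes were filtered with filterByExpr and scaled by TMM in edgeR 4.0.16 (R 4.3.3), and CPM values use these scaled totals of the tested genes. Apert was compared with WT by the quasi-likelihood test with Benjamini-Hochberg adjustment at 0.05 over 13333 genes, and SE is the log2 fold change over the root of F. The fit was tested on simulated counts. Alternatives were DESeq2 1.42.0, limma-voom 3.58.1, other scalings and filters, removal of mitochondrial and globin genes, GC and length corrections (mgcv 1.9.3), a replicate block, and leaving out each library. Chain ratios were tested by exact two-sided permutation over libraries.

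The 10 genes and all lists were chosen with earlier results of these data known. Named genes are the 10, from each other list those called and up to 4 more by p (not all are printed), and the 5 nearest profiles by root mean square distance of centred log2(CPM + 0.5). One gene that this rule names is not reported here. Same-numbered libraries are not stated to be paired.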

Additional observations from a re-analysis of the deposited data

How the results depend on the processing

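The count of called genes, 60 with all libraries and TMM scaling, was 247 with no expression filter, 223 with DESeq2, 172 with the replicate block and 5 with the GC correction (999 at an unadjusted p below 0.05). The count among the 10 collagens, 1, was 3 with no filter, 2 with DESeq2, 3 with the replicate block, 0 with the GC correction, 3 with the GC correction and replicate block together, and 0 with library totals alone. Leaving out 1 library gave 0 to 229 called genes and 0 to 3 called collagens: 15, 23 and 0 genes without WT replicate 1, 2 or 3, and 229, 2 and 11 without Apert replicate 1, 2 or 3. Without WT replicate 3, where edgeR called 0, 1376 genes had an unadjusted p below 0.05. The block added Col1a1 (0.90, adjusted p = 0.00692) and Col5a2 (0.66, adjusted p = 0.0439). Deviations of same-numbered libraries correlated at 0.194, 0.02 and 0.086, and not every library correlated best with its own number. Log2 fold changes that turned sign were those of Col5a1, at 0.17 with the GC correction and 0.16 with GC and block, of Col6a2, at -0.084 with library totals alone and -0.10 to 0.40 with a library left out, and of Col6a1, at -0.90 to 0.01 with a library left out (0.009 without WT replicate 2). The log2 ratio of summed CPM of the 10 genes was 0.24, and 0.080 with library totals alone. The causes were not tested. Col6a1 was below the filter on a mean CPM of 5 and has 17 alternatives. Differences in chain ratio did not always move by less than the WT SD when a library was left out. Those of Col3a1/Col1a1 and Col6a1/Col6a2 turned sign, to 0.08 without WT replicate 1 and to 0.03 without Apert replicate 2. The list medians of cartilage collagens and of collagen receptors were 0.0006 and 0.14 without WT replicate 2, and that of regulators was -0.15 with library totals alone.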
